A study of Mus musculus with 70 samples.

Results

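The aryl hydrocarbon receptor (AHR) pathway was followed in mouse pituitary through 8 genes of 22835 in the RNA-seq table: the receptor gene Ahr, its repressor Ahrr, the partner genes Arnt and Arnt2, and the target genes Cyp1a1, Cyp1b1, Tiparp and Nqo1. They were picked by gene symbol, and the transcript with the highest mean level stood for each gene. AHR is a transcription factor of the bHLH-PAS family that rests in the cytoplasm with chaperones until a ligand, such as a dioxin or a tryptophan metabolite, binds it. It then enters the nucleus, pairs with ARNT or ARNT2 and activates genes through a short DNA motif, the dioxin response element. AHRR binds ARNT and the same motif but does not activate, and its gene is itself a target of AHR, so that it closes a feedback loop.

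RNA-seq compared 4 groups of adult male mice of 2 to 4 months. They were hypothyroid wild type (n = 4), hyperthyroid wild type (n = 4), hypothyroid Thrb-KO (n = 5) and hyperthyroid Thrb-KO (n = 5) mice, all of the C57BL/6J strain. Thrb-KO mice lack thyroid hormone receptor β (TRβ) in every cell of the body. All groups drank 0.05% methimazole (MMI) and 1% KClO4 for 4 or 5 weeks, which blocks hormone synthesis in the thyroid, and the hyperthyroid groups also received 0.5 μg/ml triiodothyronine (T3) in the final week, so that no group had an untreated thyroid. Each library was a pool of 3 pituitaries. Fewer cells of a type and less RNA per cell cannot be told apart in such pools.

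The other data were 3 lists of genomic sites. Chromatin affinity purification (ChAP-seq) mapped TRβ in untreated male pituitary and cerebral cortex of mice with a Thrb HAB knockin allele and the biotin ligase BirA, labelled C57BL/6J but of mixed background by the methods, with 3 HAB;BirA and 3 BirA control libraries for each tissue and about 12 pituitaries per pituitary library. The control libraries are BirA by their titles and by the methods, while their genotype label reads HAB, and control reads and folds given below rest on the titles. ATAC-seq compared 4 hypothyroid and 4 hyperthyroid preparations of pituitary nuclei. They were purified with a Sun1-GFP tag switched on by Cre from the Thrb b2 locus, so ATAC-seq covered cells of the Thrb lineage only. By the methods these were male mice of mixed background, heterozygous for the Thrb b2Cre knockin and homozygous for Sun1-GFP. They were treated with MMI, KClO4 and T3 in the same way as the RNA groups.

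Read counts summed over all transcripts came to 21453548 to 55273749 per library (median 34673225). A read shared by transcripts of a gene may count more than once in these sums. At this depth 3 reads, taken as the limit of detection, correspond to 0.0543 to 0.1398 CPM, the read count scaled to library size. Pituitary hormone genes were high in every library, with a summed level of 69570 to 224300 CPM over 8 genes, none at 0. Replicates 1 and 2 differed from replicates 3 to 5 across all groups, which the labels do not explain, and hyperthyroid wild-type replicate 3 stood apart, with a median correlation of 0.977 with its group and at least 0.99 in every other library. The Thrb transcript total was 257 ± 27.3 and 271 ± 20.1 CPM (SD) in hypothyroid wild type and Thrb-KO, and 104 ± 22.8 and 260 ± 32.0 CPM in the hyperthyroid groups. It was not lower in Thrb-KO, and a total over the whole transcript does not show whether the deleted exons were read, so it does not check the genotype labels. Summed immune-cell markers (Ptprc, Csf1r, Cd68, Lyz2 and C1qa, none at 0) were 76.7 to 91.3 CPM in hypothyroid and 56.9 to 103 CPM in hyperthyroid wild type. The sums were 44.2 to 51.2 CPM in hypothyroid and 43.6 to 57.3 CPM in hyperthyroid Thrb-KO. Of the 5 markers, 3 were called lower in hypothyroid and 2 in hyperthyroid Thrb-KO. Of all genes, 3.54% and 5.65% were called in either direction in these comparisons.

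Changes were tested with limma on log2(CPM + 1), a scale that understates the change of low genes, over 14472 genes with more than 1 CPM in at least 4 libraries. A gene was called at an adjusted p under 0.05 (Benjamini-Hochberg over all genes in the fit) with at least a 1.5-fold change. Nothing in the labels says that replicates came from separate treatment cohorts, so the p-values measure only the spread between these samples. Of the 8 genes, 7 entered the fit and Cyp1a1 did not. Ahrr entered only through its wild-type libraries, since every Thrb-KO library was below 1 CPM.

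Ahrr, the repressor, lies at chr13:74348566-74429779 on the minus strand of mm9. A TRβ-HAB peak in untreated pituitary lay within it, at chr13:74382701-74382950, in an intron. Its sequence is shown because Ahrr had the largest changes of the 7 genes tested below, with the promoter of Ahrr beside it because the gene is regulated by the pathway it restrains. Capitals in the peak, printed on the plus strand, mark the best match to a direct repeat of AGGTCA with a spacer of 4 bases, the arrangement that TRβ and RXR prefer. Capitals in the 250 bases upstream of the start, which are those of RefSeq on GRCm38.p6 (chr13:74292332-74292581, minus strand), mark the dioxin response core GCGTG.
Ahrr peak: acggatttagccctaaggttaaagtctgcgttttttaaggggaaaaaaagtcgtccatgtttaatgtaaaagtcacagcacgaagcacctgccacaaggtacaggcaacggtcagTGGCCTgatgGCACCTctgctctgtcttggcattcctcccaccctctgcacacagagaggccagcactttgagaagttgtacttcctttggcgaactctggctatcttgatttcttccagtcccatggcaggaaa
Ahrr promoter: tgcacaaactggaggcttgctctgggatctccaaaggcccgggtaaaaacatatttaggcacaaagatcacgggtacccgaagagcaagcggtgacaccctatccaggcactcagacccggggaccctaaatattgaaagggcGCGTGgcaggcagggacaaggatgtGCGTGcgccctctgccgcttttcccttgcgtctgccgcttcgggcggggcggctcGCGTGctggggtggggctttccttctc

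The match in the peak, AGGTGCcatcAGGCCA on the minus strand at chr13:74382816-74382831, had 3 mismatches of 12 bases, and 55.0% of the 8051 pituitary peaks held a match as good. No match with 2 mismatches or fewer was found in this window, where 20.9% of pituitary peaks had one. In the upstream window GCGTG occurred 3 times, and in 300-base windows around the starts of 32851 RefSeq transcripts 3.91% held at least 3 copies on either strand. Of the 8 genes, 7 had such a window in the table and 5 held GCGTG, against 32.4% of all windows. The 7 windows held 53.7% to 76.7% G and C, above the median of 52.7% over all windows, and the shares were not matched for this. Arnt, Cyp1a1, Cyp1b1 and Tiparp held 1 copy each, Arnt2 and Nqo1 none. These matches are descriptions of letters, and binding at them was not measured here.

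Ahrr in hypothyroid wild-type pituitary was 2.25, 1.84, 1.26 and 1.31 CPM in replicates 1 to 4, from 36 to 79 reads per library. In hyperthyroid wild type it was 6.16, 4.56, 2.80 and 4.24 CPM, from 69 to 274 reads. All 4 hyperthyroid values lay above all 4 hypothyroid values, and the lowest of them was replicate 3, the library that stood apart. The means were 1.66 ± 0.472 and 4.44 ± 1.38 CPM (SD, n = 4 each), a 2.67-fold rise with T3 (log2 change 1.01, SE 0.15, limma adjusted p = 7.51e-05). On the pooled reads, 671 against 233, the ratio was 2.82 with a 95% interval of 2.42 to 3.28 that covers counting error only.

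In Thrb-KO pituitary Ahrr was near the limit of detection in both treatments. Hypothyroid Thrb-KO libraries had 0.103, 0.164, 0.217, 0.131 and 0.160 CPM, from 3 to 12 reads each. Hyperthyroid Thrb-KO libraries had 0.163, 0.278, 0.214, 0 and 0.0932 CPM, from 0 to 10 reads. The Thrb-KO values overlapped each other and none reached a wild-type value. The means were 0.155 ± 0.0426 and 0.150 ± 0.108 CPM (SD, n = 5 each), and T3 gave a log2 change of -0.01 (SE 0.14, limma adjusted p = 1). The pooled reads were 29 and 27, a ratio of 0.981 with a 95% interval of 0.559 to 1.72 that covers counting error only.

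**Figure D1:**
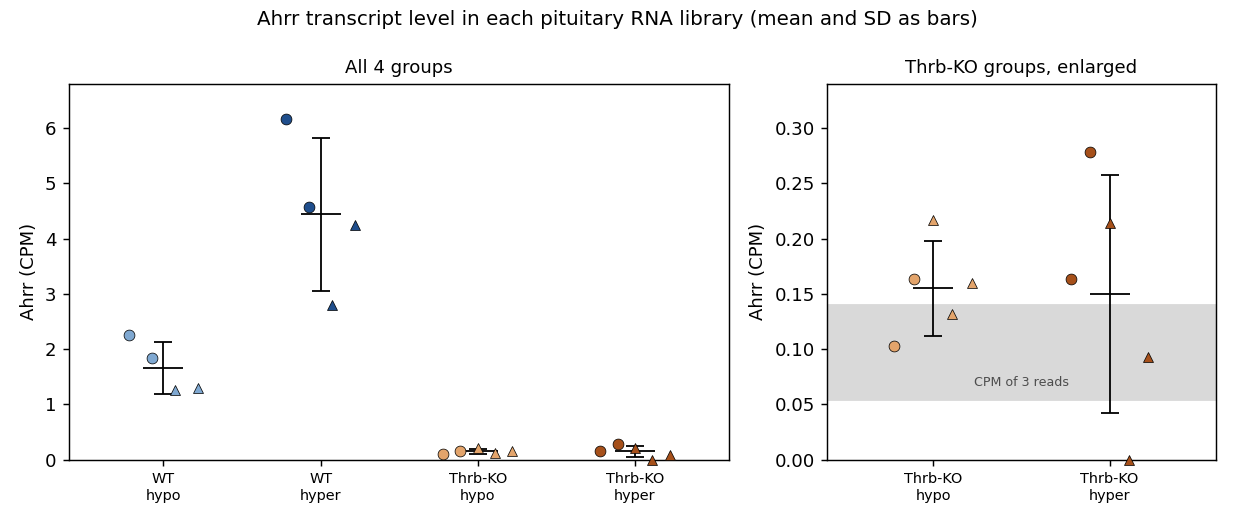
Ahrr level in CPM (y axis) in each RNA library of the 4 groups (x axis; WT, wild type; hypo, hypothyroid; hyper, hyperthyroid), with the mean and SD as bars, circles for replicates 1 and 2 and triangles for replicates 3 to 5. The right panel enlarges the Thrb-KO groups, with the CPM of 3 reads in grey: wild-type libraries sit between 1.26 and 6.16 CPM and Thrb-KO libraries between 0 and 0.278 CPM.

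Against wild type, Ahrr was 10.75-fold lower in hypothyroid Thrb-KO (log2 change -1.19, SE 0.15, limma adjusted p = 2.1e-05) and 29.6-fold lower in hyperthyroid Thrb-KO (log2 change -2.21, SE 0.15, limma adjusted p = 4.47e-09). The ratios of pooled reads were 0.0989 (interval 0.0648 to 0.146) and 0.0345 (0.0225 to 0.0506), with intervals that cover counting error only. On recovered reads, edgeR gave log2 changes of -3.36 and -4.85 for the same comparisons. The immune-marker sums given above were also lower in Thrb-KO, without overlap in hypothyroid mice and with overlap in hyperthyroid mice. Summed folliculostellate and stem-cell markers were 57.95 to 73.87 CPM in hyperthyroid Thrb-KO and 82.64 to 97.15 CPM in hyperthyroid wild type, and overlapped in hypothyroid mice. Of other markers, Aldh1a2 was called lower and Pou1f1 higher in hyperthyroid Thrb-KO, and Pcsk2 lower in hypothyroid Thrb-KO. Endothelial, pericyte and fibroblast, posterior-lobe and blood markers had no call between genotypes. The part of cell types in the Ahrr difference was not tested.

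The T3 response of Ahrr differed between genotypes by -1.02 on the log2 scale (SE 0.21, limma adjusted p = 0.00397). This call depended on the scale. It was lost with a pseudocount of 0.1 (adjusted p = 0.0623), with edgeR (0.164) and with DESeq2 (0.0604), where the estimates were -1.50, -1.49 and -1.49. The adjusted p over all alternatives ran from 0.000213 to 0.164.

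The T3 difference of Ahrr in wild type and its genotype differences had the same direction in each library set alone. Between the sets, replicates 3 to 5 minus replicates 1 and 2, Ahrr differed by -0.236 on the log2 scale (limma adjusted p = 0.0261). In replicates 1 and 2 alone the T3 change of Ahrr in wild type was 1.06, and in replicates 3 to 5 alone it was 0.97 on the log2 scale. The differences between Thrb-KO and wild type were -1.42 and -0.97 in hypothyroid and -2.37 and -2.02 in hyperthyroid mice. Without hyperthyroid wild-type replicate 3 the T3 change in wild type was 1.17 (limma adjusted p = 3.62e-06).

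Ahr, the receptor, lies at chr12:36182646-36219710 on the minus strand of mm9, where Gm17436 overlaps it on the opposite strand, and the libraries do not mark strand. Its level in hypothyroid wild type was 20.3, 20.4, 19.2 and 19.8 CPM, and in hyperthyroid wild type 17.8, 19.4, 13.4 and 20.7 CPM. Hypothyroid Thrb-KO libraries gave 18.2, 16.3, 17.1, 20.3 and 15.6 CPM, and hyperthyroid ones 17.4, 16.1, 17.0, 21.7 and 16.2 CPM. The 4 groups overlapped, and the low value of 13.4 CPM came again from the replicate that stood apart. T3 gave log2 changes of -0.17 in wild type (SE 0.12, 95% interval -0.42 to 0.08, limma adjusted p = 0.406) and 0.01 in Thrb-KO (interval -0.22 to 0.24). Between genotypes the changes were -0.18 in hypothyroid and -0.00 in hyperthyroid mice (adjusted p = 0.435 and 0.99), so no change of Ahr was detected.

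Of the partners, Arnt (chr3:95238310-95301162, plus strand), the general partner of AHR and of hypoxia-inducible factors, varied little. Its group means were 48.8 ± 5.41 and 50.7 ± 8.29 CPM in hypothyroid and hyperthyroid wild type, and 51.3 ± 4.46 and 52.0 ± 4.39 CPM in Thrb-KO. All groups overlapped, with libraries between 39.8 and 58.1 CPM. The log2 changes lay between -0.03 and 0.07 over the 5 comparisons, with limma adjusted p of 0.796 to 1.

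Arnt2 (chr7:91394791-91558469, minus strand), the partner form most abundant in neural and neuroendocrine cells, was higher in Thrb-KO. Wild-type libraries had 80.4, 68.2, 58.2 and 53.3 CPM when hypothyroid and 55.9, 60.7, 34.7 and 46.7 CPM when hyperthyroid. Thrb-KO libraries had 95.1, 98.3, 93.0, 87.1 and 82.7 CPM when hypothyroid and 104, 101, 89.6, 91.2 and 89.0 CPM when hyperthyroid. Every Thrb-KO library lay above every wild-type library of the same treatment, and the wild-type treatments overlapped.

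In hyperthyroid mice Arnt2 was 1.92-fold higher in Thrb-KO, at 95.1 ± 7.26 against 49.5 ± 11.4 CPM (log2 change 0.96, SE 0.14, limma adjusted p = 7.58e-05). The change was 0.81 in replicates 1 and 2 alone, 1.14 in replicates 3 to 5 alone and 0.80 without hyperthyroid wild-type replicate 3. In hypothyroid mice it was 1.40-fold higher, at 91.2 ± 6.27 against 65.0 ± 12.0 CPM (log2 change 0.50, SE 0.14, limma adjusted p = 0.0319), under the 1.5-fold limit, and the adjusted p was 0.104 without hypothyroid wild-type replicate 3. With T3 in wild type Arnt2 gave a log2 change of -0.40 (SE 0.14, adjusted p = 0.0594), which was -0.24 (adjusted p = 0.164) without hyperthyroid wild-type replicate 3, and with the replicate number as a block the adjusted p was 0.0068. In Thrb-KO the change was 0.06. The difference between these responses was 0.46 (adjusted p = 0.229, and 0.0396 with the block).

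**Figure D2:**
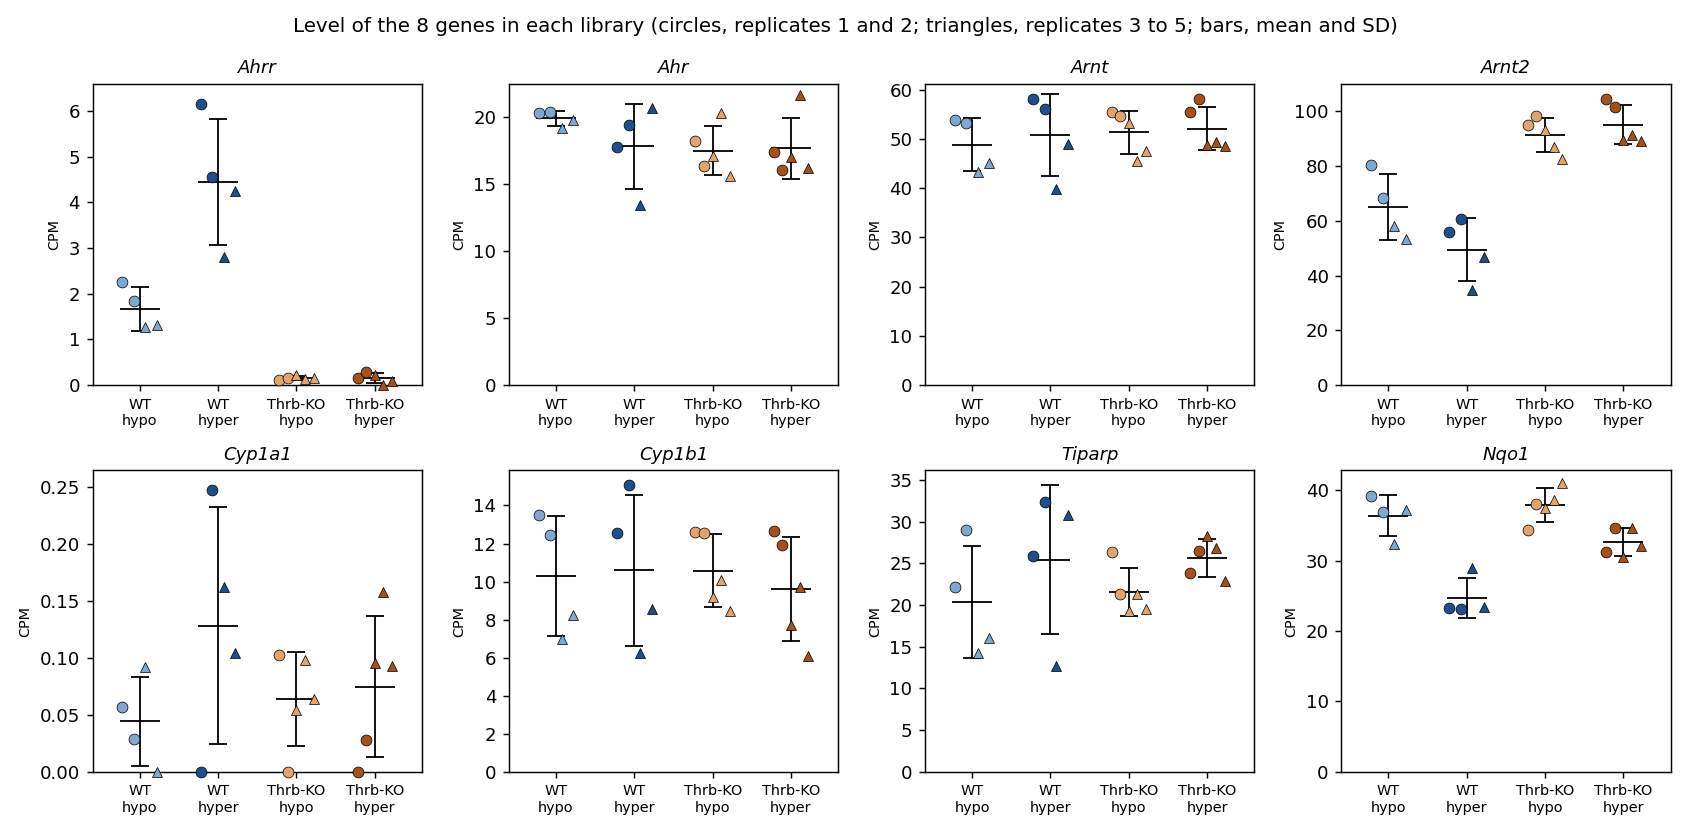
Level of each of the 8 genes in CPM (y axes, from 0) in the 18 RNA libraries by group (x axes), with mean and SD as bars, circles for replicates 1 and 2 and triangles for replicates 3 to 5. Ahrr is at 1.26 to 6.16 CPM in wild type and at most 0.278 CPM in Thrb-KO, Arnt2 is above 82 CPM only in Thrb-KO, and Ahr, Arnt, Cyp1b1 and Tiparp overlap between all groups.

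Among the targets, Cyp1a1 (chr9:57545420-57551629, plus strand), the monooxygenase gene most often used to read AHR activity, was at the limit of detection. It had 2, 1, 4 and 0 reads in hypothyroid wild type and 0, 9, 4 and 4 reads in hyperthyroid wild type. Thrb-KO libraries had 3, 0, 3, 3 and 2 reads when hypothyroid and 0, 1, 4, 5 and 2 reads when hyperthyroid. All groups overlapped, 4 of the 18 libraries had 0 reads, and 47 reads were found among 628866751 counted over all transcripts and libraries. In an exact two-sided permutation test of each of 4 comparisons p was 0.2 for T3 in wild type, 0.794 for T3 in Thrb-KO, 0.468 between hypothyroid and 0.357 between hyperthyroid genotypes (adjusted over the 4, 0.624 to 0.794). The smallest p possible was 0.0286 for T3 in wild type and 0.00794 for the other comparisons, so that complete separation would have passed an unadjusted 0.05, and none was found. The counts left wide limits, with a ratio of pooled reads of 2.37 (95% interval 0.936 to 6.77, counting error only) for T3 in wild type.

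Cyp1b1 (chr17:80106234-80114401, minus strand), the extrahepatic member of the same enzyme family, was expressed at like levels in all groups. Hypothyroid and hyperthyroid wild type had means of 10.3 ± 3.17 and 10.6 ± 3.96 CPM, and Thrb-KO had 10.6 ± 1.93 and 9.62 ± 2.75 CPM. The groups overlapped, and the log2 changes were -0.17 to 0.06 with limma adjusted p of 0.831 to 1. The largest difference was between the library sets: replicates 3 to 5 were lower than replicates 1 and 2 by 0.63 on the log2 scale (limma adjusted p = 6.6e-06), with 6.11 to 10.1 CPM against 11.9 to 15.1 CPM. The genotype and T3 intervals of Cyp1b1 were correspondingly wide, at -0.52 to 0.55 for T3 in wild type.

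Tiparp (chr3:65332332-65359067, plus strand), an ADP-ribosyltransferase that modifies AHR and dampens it, did not pass the test either. Its group means were 20.4 ± 6.71 and 25.5 ± 8.91 CPM in hypothyroid and hyperthyroid wild type and 21.6 ± 2.88 and 25.6 ± 2.25 CPM in Thrb-KO. Hyperthyroid wild type held both the highest library, 32.4 CPM, and the lowest, 12.7 CPM, which was replicate 3. T3 gave log2 changes of 0.28 in wild type (interval -0.21 to 0.77, limma adjusted p = 0.504) and 0.24 in Thrb-KO (interval -0.19 to 0.68, adjusted p = 1). The gene 4931440P22Rik overlaps Tiparp on the opposite strand, so reads of both cannot be told apart where they overlap.

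Nqo1 (chr8:109912125-109927106, minus strand), a quinone reductase under the control of both AHR and NRF2, was lower with T3 in wild type. Hypothyroid wild-type libraries had 39.2, 36.9, 32.3 and 37.2 CPM and hyperthyroid ones 23.3, 23.1, 28.9 and 23.4 CPM. The hyperthyroid values were all below the hypothyroid ones, and replicate 3 was the highest of them. The ratio of the means, 24.7 ± 2.83 to 36.4 ± 2.91 CPM, was 0.678 (log2 change -0.55, SE 0.09, limma adjusted p = 0.000138), a 1.48-fold change that stayed under the 1.5-fold limit. It passed the limit without hyperthyroid wild-type replicate 3 (log2 change -0.62) and without hypothyroid wild-type replicate 3 (-0.60).

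In Thrb-KO the Nqo1 libraries had 34.3, 38.1, 37.6, 38.7 and 41.1 CPM when hypothyroid and 31.2, 34.7, 30.6, 34.7 and 32.1 CPM when hyperthyroid. These groups overlapped, and the log2 change with T3 was -0.21 (SE 0.08, limma adjusted p = 0.284). The difference between the responses was 0.34 (adjusted p = 0.118, and 0.0138 without hyperthyroid wild-type replicate 3). Hyperthyroid Thrb-KO lay above hyperthyroid wild type in every library, by 1.32-fold (log2 change 0.39, SE 0.08, limma adjusted p = 0.00307), under the fold limit, and with edgeR the adjusted p was 0.0542. In hypothyroid mice the genotypes differed by 0.06 (adjusted p = 0.781).

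Taking the genes by comparison, T3 in wild type gave 1 call among the 7 tested (Ahrr, up), where 10.4% of all 14472 genes were called. T3 in Thrb-KO gave 0 calls by limma, edgeR and DESeq2, where limma called 1.33% of all genes, and 1 of the 7 (Nqo1) had an unadjusted limma p under 0.05. The difference of responses gave 1 call (Ahrr) where 5.13% of genes were called. Thrb-KO against wild type gave 1 call in hypothyroid mice (Ahrr, down) where 3.54% of genes were called, and 2 in hyperthyroid mice (Ahrr down, Arnt2 up) where 5.65% were called. One gene of 7 makes 14.3% and 2 make 28.6%. With 7 genes any single call exceeds every share over all genes given here, so the shares cannot show an excess of calls. Each comparison with a call included Ahrr, which entered the fit only through its wild-type libraries. The median log2 change of the 7 lay between -0.03 and 0.06, against -0.04 to 0.06 over all genes.

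Groups of libraries did not overlap for 2 of the 7 genes with T3 in wild type (Ahrr and Nqo1), where 18.4% of all genes did not overlap, and for 0 of 7 with T3 in Thrb-KO, where 6.01% did not. Between genotypes this held for 2 genes in hypothyroid mice (Ahrr and Arnt2; 14.6% of all genes) and for 3 in hyperthyroid mice (Ahrr, Arnt2 and Nqo1; 12.0% of all genes). The comparisons share groups of libraries, so their counts are not independent of each other.

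**Figure D3:**
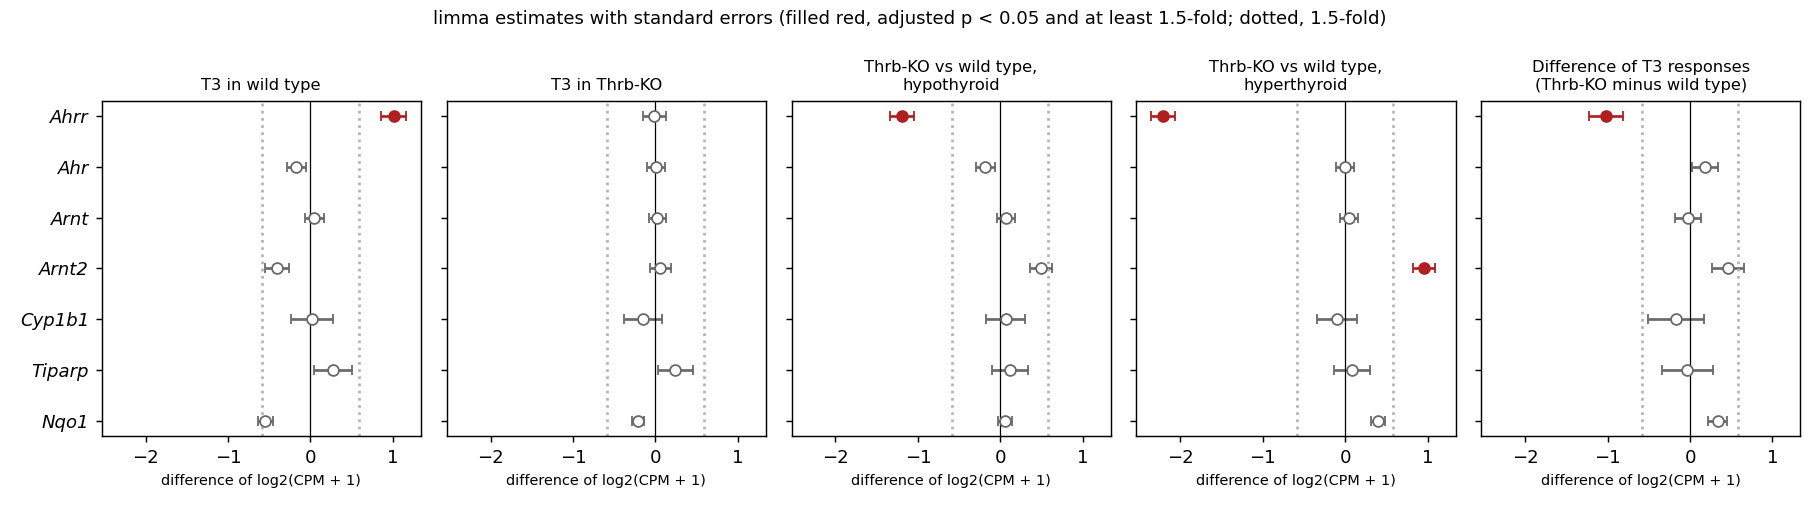
limma difference of log2(CPM + 1) with its standard error (x axes) for the 7 genes in the fit (y axis), in 5 comparisons, with called genes filled red and 1.5-fold dotted. Ahrr is called in 4 comparisons, from 1.01 for T3 in wild type to -2.21 for Thrb-KO against wild type in hyperthyroid mice, and Arnt2 in 1, at 0.96.

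Levels were compared between genes per kilobase of transcript. In hypothyroid wild type Nqo1 was highest, at 23.4 ± 1.88 CPM per kb, followed by Arnt at 11.3 ± 1.25 and Arnt2 at 10.9 ± 2.00 CPM per kb, which overlapped, while no other neighbours in the order did. Tiparp followed at 5.34 ± 1.76 CPM per kb, then Ahr at 3.59 ± 0.102, Cyp1b1 at 2.01 ± 0.618, Ahrr at 0.350 ± 0.0993 and Cyp1a1 at 0.017 ± 0.015 CPM per kb. In hyperthyroid wild type the order was the same, and all neighbours from Arnt down to Ahrr overlapped, with Ahrr at 0.934 ± 0.290 CPM per kb. In Thrb-KO Arnt2 was second, at 15.2 ± 1.05 CPM per kb when hypothyroid and 15.9 ± 1.21 CPM per kb when hyperthyroid, above every Arnt value. Ahrr there, at 0.0326 ± 0.00896 and 0.0315 ± 0.0227 CPM per kb, overlapped Cyp1a1.

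TRβ-HAB peaks within 20 kb of the gene body were found for 2 of the 8 genes in pituitary (Ahrr and Nqo1), where 30.5% of 21506 genes had one. In cortex 1 of the 8 had one (Tiparp), where 26.0% of genes did. A T3-regulated ATAC peak was near 1 of the 8 (Ahr), where 5.90% of genes had one. Peaks were called on merged libraries, so their values carry no error between replicates, and the ATAC list gives no direction.

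The Ahrr peak printed above was 250 bp long and held 28 HAB;BirA reads against 0 BirA reads, with a fold over control of 93.5 by the deposited list and a false discovery rate of 1.74e-45. The median pituitary peak held 18 reads, and 22.5% of peaks held more than this one. Its middle was 46954 bp downstream of the longest transcript's start and 12168 to 16050 bp downstream of 3 shorter annotated transcripts' starts. No T3-regulated ATAC peak lay within 20 kb of Ahrr, and the list does not hold open sites that T3 did not regulate. A second pituitary peak (19 against 3 reads) and a cortex peak (13 against 1) overlapped by 350 bp at the start of the neighbouring gene Pdcd6, 25096 bp upstream of Ahrr.

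The Nqo1 peak, at chr8:109925701-109925900 in an intron, had 12 HAB;BirA reads against 0, a fold of 40.1 and a false discovery rate of 9.91e-17, and 85.9% of pituitary peaks held more reads. Its middle was 1306 bp downstream of the start of the gene. Its sequence, shown because Nqo1 was the only other gene of the 8 with a pituitary peak, held no direct repeat with 3 mismatches or fewer.
Nqo1 peak: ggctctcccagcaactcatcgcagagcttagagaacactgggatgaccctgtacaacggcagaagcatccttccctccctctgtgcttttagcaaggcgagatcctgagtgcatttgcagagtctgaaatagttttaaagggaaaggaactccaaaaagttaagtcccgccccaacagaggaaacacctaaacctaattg

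The cortex peak at Tiparp, chr3:65332951-65333400, had 14 reads against 1, a fold of 11.9 and a false discovery rate of 2.6e-11. It lay 844 bp downstream of the Tiparp start, in an intron, and covered exons of 4931440P22Rik, whose start was 126 bp away. The ATAC peak at Ahr, chr12:36190982-36191322, had an adjusted p of 2.06e-05 in the deposited list and overlapped exon 9 of Ahr by 77 bp, 28558 bp downstream of the start. Of the 2 genes called in RNA, Ahrr held a pituitary peak, and the nearest listed peak to Arnt2 lay 94391 bp from its gene body.

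**Figure D4:**
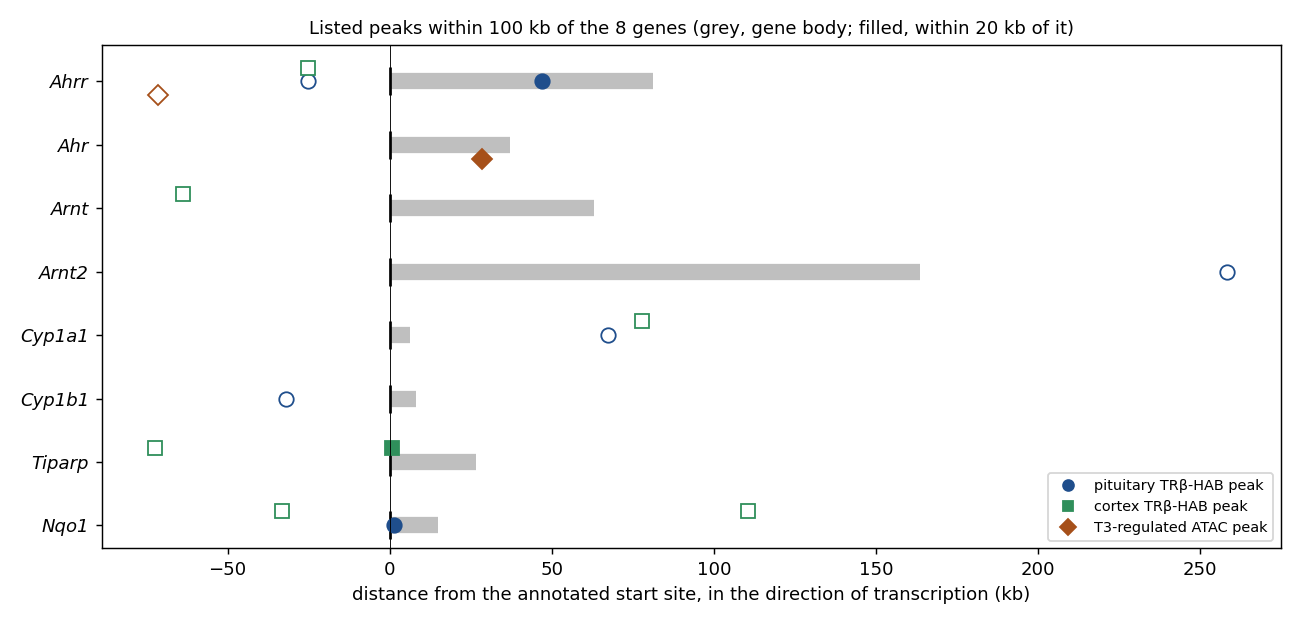
Listed peaks within 100 kb of the 8 genes (y axis) by distance from the annotated start in the direction of transcription (x axis, kb), with gene bodies as grey bars and peaks within 20 kb of a gene body filled. Filled symbols mark the pituitary peaks of Ahrr (46954 bp) and Nqo1 (1306 bp), the cortex peak of Tiparp (844 bp) and the ATAC peak of Ahr (28558 bp), all inside gene bodies.

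The wider pathway was read from 7 lists of 59 genes, of which 56 were in the table and 42 in the fit. With T3 in wild type 3 of the 42 were called up and 2 down (11.9%, against 10.4% of all genes). In Thrb-KO 1 was called up and 0 down (2.38% against 1.33%), and in the difference of responses 1 was up and 1 down (4.76% against 5.13%). Thrb-KO against wild type gave 0 up and 1 down in hypothyroid mice (2.38% against 3.54%) and 3 up and 3 down in hyperthyroid mice (14.3% against 5.65%). These counts include Kmo and Scin, which passed the filter mainly through the groups where they were high. The lists were chosen with earlier results of these data known, so the shares cannot show an excess. Chaperones of the receptor (3 genes, Hsp90 genes among them), partners of the CYP1 enzymes (4 genes) and NRF2 targets (8 genes) had 0 calls in every comparison. Their median log2 changes with T3 in wild type were -0.17, -0.08 and 0.09, against -0.04 over all genes.

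Kmo, whose enzyme turns kynurenine, a ligand of AHR, into 3-hydroxykynurenine, entered the fit only through hyperthyroid libraries, since 0 of the hypothyroid libraries of either genotype were above 1 CPM. It was 0.656, 0.991, 0.505 and 0.544 CPM in hypothyroid and 9.87, 10.6, 7.42 and 12.2 CPM in hyperthyroid wild type. Thrb-KO libraries had 0.376, 0.327, 0.452, 0.493 and 0.128 CPM when hypothyroid and 0.788, 1.34, 1.24, 1.20 and 1.12 CPM when hyperthyroid. Hyperthyroid libraries lay above hypothyroid ones in both genotypes, and no Thrb-KO library came near hyperthyroid wild type.

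The log2 change of Kmo with T3 was 2.71 (SE 0.14, limma adjusted p = 5.33e-11) in wild type and 0.66 (SE 0.12, adjusted p = 0.00354) in Thrb-KO, and these responses differed by -2.05 (adjusted p = 5.2e-07). In replicates 3 to 5 alone the change in Thrb-KO was 0.70 (adjusted p = 0.0533). The other 4 kynurenine enzymes in the fit had no call.

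Among 8 other bHLH-PAS genes in the fit, Hif3a, a hypoxia-inducible factor subunit, fell with T3 in wild type, from 57.3 ± 7.89 to 29.1 ± 8.61 CPM (log2 change -0.98, SE 0.19, limma adjusted p = 0.000926). In Thrb-KO it was 74.8 ± 5.67 and 58.2 ± 14.8 CPM, and the hyperthyroid genotypes differed by 0.98 (adjusted p = 0.00112). Npas4, an activity-regulated factor, fell from 15.6 ± 1.43 to 8.94 ± 0.979 CPM in wild type (log2 change -0.74, adjusted p = 8e-04), and its responses differed between genotypes by 1.04 (adjusted p = 0.00172). Epas1, the gene of HIF-2α, was lower in hyperthyroid Thrb-KO than in wild type, at 68.2 ± 12.1 against 119 ± 38.7 CPM (log2 change -0.75, adjusted p = 0.0324). Epas1 was higher in replicates 1 and 2 than in the others in every group, and its call was lost without hyperthyroid wild-type replicate 1 (adjusted p = 0.103) or 2 (0.102) and without hyperthyroid Thrb-KO replicate 3, 4 or 5 (0.0578 to 0.0823). In replicates 1 and 2 alone Hif3a changed by -0.55 with T3 in wild type, under the fold limit. Hif3a, Npas4 and Epas1 share with AHR the use of an ARNT partner.

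Of 5 further AHR targets in the fit, Aldh3a1, an aldehyde dehydrogenase, was lower in Thrb-KO in both treatments, at 5.53 ± 1.11 against 9.59 ± 1.26 CPM when hypothyroid (log2 change -0.70, limma adjusted p = 0.0156) and 4.54 ± 1.47 against 8.36 ± 1.41 CPM when hyperthyroid (-0.79, adjusted p = 0.00432). Without hypothyroid wild-type replicate 3 the adjusted p of the first was 0.0645. Scin, an actin-severing protein gene, was higher in hyperthyroid Thrb-KO than in wild type, at 1.39 ± 0.385 against 0.437 ± 0.185 CPM (log2 change 0.73, adjusted p = 0.000635). It entered the fit mainly through Thrb-KO libraries, since 0 of 4 hyperthyroid and 1 of 4 hypothyroid wild-type libraries were above 1 CPM. Of 9 Parp genes related to Tiparp, Parp6 rose with T3 in wild type from 35.7 ± 1.97 to 63.5 ± 8.02 CPM (log2 change 0.81, adjusted p = 5.15e-05) and Parp10 from 29.3 ± 1.40 to 46.3 ± 9.90 CPM (0.62, adjusted p = 0.000513). Without hyperthyroid wild-type replicate 4 the change of Parp10 was 0.50, under the fold limit.

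**Figure D5:**
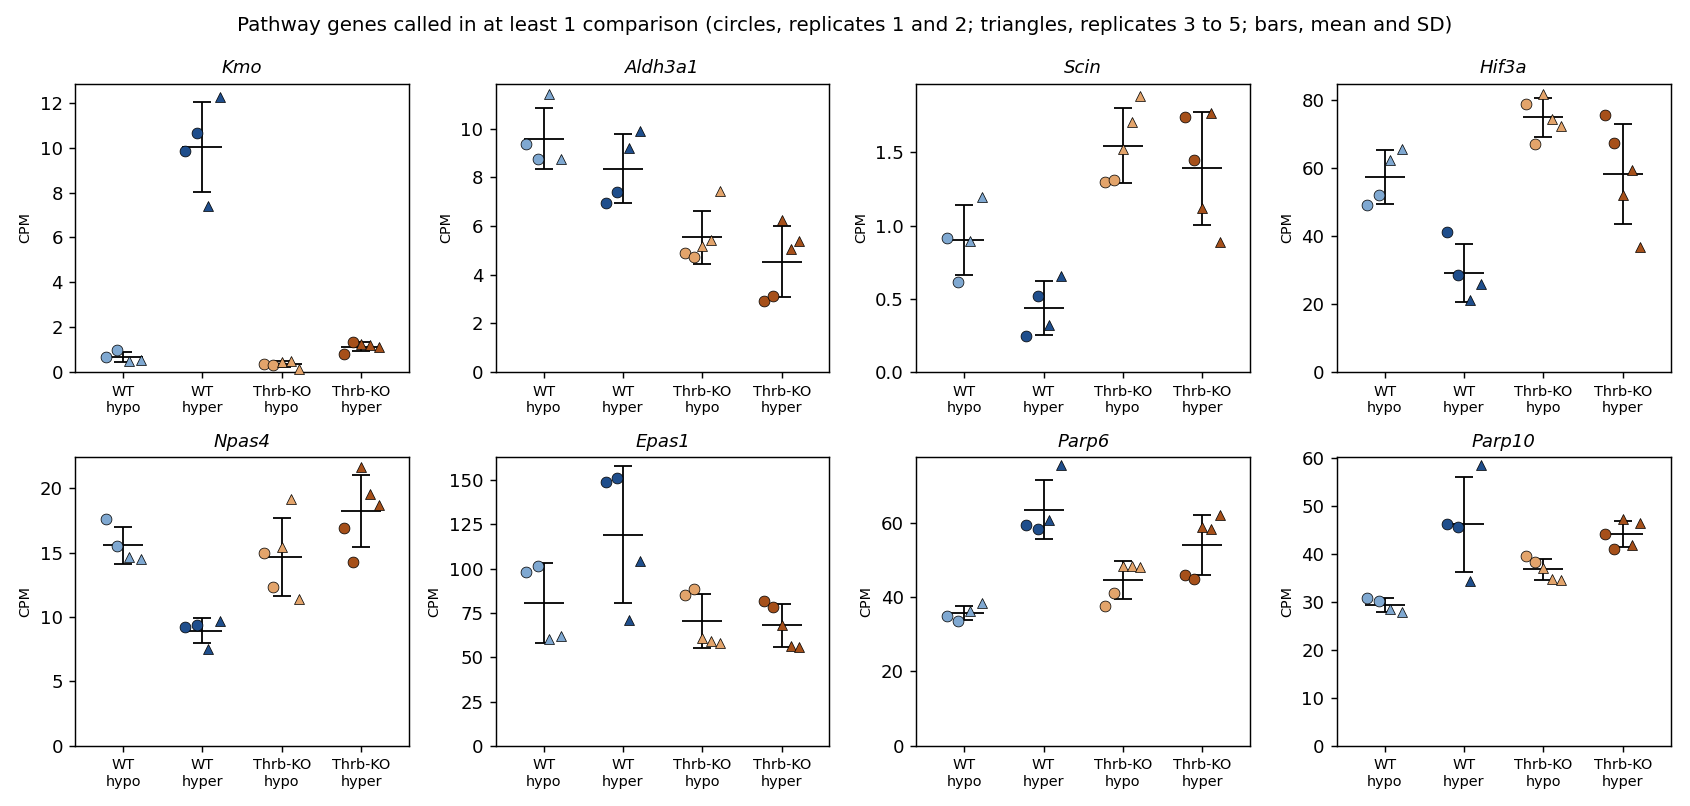
Level in CPM (y axes, from 0) in each RNA library by group (x axes) of the 8 listed pathway genes called in at least 1 comparison, with mean and SD as bars, circles for replicates 1 and 2 and triangles for replicates 3 to 5. Kmo is at 7.42 to 12.2 CPM in hyperthyroid wild type and at most 1.34 CPM elsewhere, and Aldh3a1 has lower means in both Thrb-KO groups.

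The genes whose levels followed Ahrr most closely were found by the root mean square difference of centred log2(CPM + 1) over the 18 libraries. They were Fam169b (0.210), Gpr83 (0.279), a receptor gene, and Scnn1b (0.279), a subunit of the epithelial sodium channel. Tspan18 (0.345), a tetraspanin, and Acacb (0.346), an acetyl-CoA carboxylase, followed. Fam169b had means of 4.62 and 10.3 CPM in hypothyroid and hyperthyroid wild type and of 1.48 and 1.44 CPM in Thrb-KO. Scnn1b had 18.3 and 41.1 CPM in wild type and 7.70 and 9.54 CPM in Thrb-KO. The scale compresses the low Ahrr values of Thrb-KO, so genes close to Ahrr on it can differ from it in fold. Ahr was not among these 5 genes.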

How the data were processed

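The authors prepared RNA from pools of 3 pituitaries and deposited CPM per RefSeq transcript of mm9. The methods name BBMap and the submitters' processing notes STAR, and which of the kits named made which library is not given in the sources used here. All values were whole read counts (100% of values, tolerance 0.02 reads) when the step of the CPM deposited by the authors was undone. The authors merged ChAP-seq libraries and called peaks with SICER 1.1, and the deposited lists give read counts, a fold ratio over control, p-values and false discovery rates. The deposited ATAC list gives adjusted p-values.

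The transcript with the highest mean CPM represented each gene. limma 3.58.1 (R 4.3.3, trend) was fitted to log2(CPM + 1) over 14472 genes in 1 model of 4 groups, adjusted by Benjamini-Hochberg. Cyp1a1, below the filter, was tested by exact permutation. Distances to peaks used mm9 GENCODE genes. Libraries with the same replicate number deviated together (lowest correlation 0.281). Libraries of the same set in other groups did so too (median correlation 0.507), so a pairing by number cannot be told from the library set. The labels state no shared litter or day, and the main model had no block for the number. Alternatives were other pseudocounts, filters and scalings, edgeR 4.0.16 and DESeq2 1.42.0 on recovered reads, replicate and library-set blocks, each library set alone and each library left out. The tests were checked on simulated data. The 8 genes, the pathway and marker lists and the rules for naming were chosen with earlier results of these data known: named were the 8 genes, Thrb, listed genes called in any comparison and the 5 genes most like Ahrr. The histone ChIP-seq and the ChAP-seq of treated mice were not analysed here, and 1 listed gene is not reported here.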

Additional observations from a re-analysis of the deposited data

Results flagged for a closer look

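The difference between the T3 responses of Ahrr in Thrb-KO and wild type, -1.02 on the log2(CPM + 1) scale, is set out for a closer look because the responses differed by a test of the difference itself, and because the call was lost with edgeR, DESeq2 and a pseudocount of 0.1.

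In 3 of 32 groups of libraries the highest value lay far from the others, by the gap to its neighbour over the range of the group. Chance alone gives about 1 in 20 groups (5%). The gap was 0.941 of the range for Nqo1 in hyperthyroid wild-type replicate 3 (28.9 CPM), the library that stood apart from its group over all genes. It was 0.753 for Ahr in hyperthyroid Thrb-KO replicate 4 (21.7 CPM) and 0.711 for Tiparp in hypothyroid Thrb-KO replicate 1 (26.4 CPM). What set these values apart was not tested.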

How the results depend on the processing

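Over 35 differences of the 7 genes there were 1136 values under alternatives, and 1128 kept the same call. Most of the 35 had no call in the main fit, so most of the 1128 were values that stayed without a call. Of the rest, 3 lost a call (Ahrr, difference of responses). Another 5 gained one (Nqo1 with T3 in wild type, 3, and Arnt2 between hypothyroid genotypes, 2). There were 0 reversals of a call, while 61 values without a call changed sign. Counting only genes above 1 CPM in all 18 libraries, which removes Ahrr, left 0 calls for T3 in wild type, 0 for the difference of responses, 0 between hypothyroid and 1 between hyperthyroid genotypes. The difference of responses had 0 calls with a pseudocount of 0.1, with edgeR and with DESeq2. Without a fold limit T3 in wild type had 2 calls, where 2940 of all 14472 genes were called. The hypothyroid genotypes had 2 without it, where 1099 genes were called. Replicates 1 and 2 alone gave 2 calls for T3 in wild type, where 1514 of all genes were called. Replicates 3 to 5 alone gave 2 between hypothyroid genotypes, where 767 were called. Leaving out single libraries gave 1 to 2 calls for T3 in wild type (2 without wild-type replicate 3 of either treatment). Over all genes 1458 were called without the hypothyroid and 1598 without the hyperthyroid replicate 3. Between hypothyroid genotypes it gave 1 to 2 calls (2 without hypothyroid wild-type replicate 1, where 507 of all genes were called). Within 100 kb in place of 20 kb, 5 genes had a pituitary peak, 5 a cortex peak and 2 an ATAC peak. The wider window takes in more of all genes too, and their share is not given here, so these counts cannot show an excess. With 3 mismatches allowed 1 direct repeat was found, and 0 with 2.

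For 15 pathway changes and 3 of Thrb, 583 values under the same alternatives, applied after seeing the data, held 570 with the same call, 13 that lost it and 0 reversals.

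With the replicate number as a block the counts of calls were 1, 0, 1, 1 and 2, as without it, and no gene gained or lost a call. The Ahrr change with T3 in wild type was 1.01 with the block (limma adjusted p = 3.38e-05). Of the 18 libraries 6 correlated best with a library of their own number.

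Over all genes, calls for T3 in wild type were 1509, and 2940 without a fold limit. For T3 in Thrb-KO they were 193, and 328 without the limit or 403 by a test of each gene on its own with unadjusted p and the fold limit, over the same 14472 genes. Between hypothyroid genotypes they were 513, and 790 with DESeq2, 865 by that test of each gene and 1099 without the limit, and between hyperthyroid genotypes 817, and 1328 in replicates 3 to 5 and 1871 without the limit. The split of the last was 409 higher and 408 lower, and 318 and 486 with TMM scaling. Depth limits Cyp1a1 and Ahrr in Thrb-KO, where 1 read moves a value.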
